A study of Mus musculus with 4 samples.

Results

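Candidate sites of MEIS proteins in the adult mouse dorsal root ganglion were taken from the peak lists of the adult immunoprecipitated library, each made against the adult input library. All peaks of both adult lists were kept, 375 from the caller MACS2 and 771 from the caller MACS 1.4, together 1146 of the 2843 regions listed in the series. Peaks with another peak of the same list within 10000 bp are called clustered and are described apart from the isolated ones. Chromatin immunoprecipitation followed by sequencing (ChIP-seq) was done on dorsal root ganglia of C57BL/6 mice with an antibody labelled as directed against MEIS1, MEIS2 and MEIS3, while the series title names Meis2 alone. The adult groups were 1 immunoprecipitated library and 1 input library, made from the same tissue without antibody. The adult age was not further specified, and the number of animals behind a library was not given. An equal pair of libraries from embryonic day 16 (E16) ganglia of the same strain was used only to see which adult sites also had a peak there. Sensory neurons are the labelled cell type, which peak lists cannot test because they carry no expression level. With 1 library per side there was no replicate check and no test between groups, and every interval below covers counting error only.

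MEIS proteins belong to the TALE family of homeodomain transcription factors. They bind short DNA elements, often beside PBX and HOX partners, and sites are commonly found far from gene starts as well as at promoters. In developing limbs, hindbrain, heart and blood they are known regulators of patterning and growth, and in the peripheral nervous system Meis2 is known for its part in the maturation of touch-sensing neurons. The dorsal root ganglion holds the cell bodies of the sensory neurons for touch, pain, temperature and body position.

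Peaks at gene starts were rare, so the few start windows that held one are shown first. RefSeq sequences of the GRCm38.p6 assembly, whose chromosomes are those of the mm10 build used for the peaks, covered 32851 windows from 250 bases before to 50 bases after a listed start. A MACS2 peak reached the start window of 1 gene, the long noncoding RNA gene Gm15564 on chromosome 16. MACS 1.4 also placed a peak in the windows of Trim24, which encodes a chromatin reader of the tripartite motif family, and of the noncoding RNA genes Gm40226 and Gm15511. The windows of Gm15564, the only MACS2 case, and of Trim24, the only protein-coding case, are printed 5′ to 3′ on the gene's strand, with the bases under the peak in capitals.
Gm15564, chr16:35981800-35982099, minus strand, MACS2 peak: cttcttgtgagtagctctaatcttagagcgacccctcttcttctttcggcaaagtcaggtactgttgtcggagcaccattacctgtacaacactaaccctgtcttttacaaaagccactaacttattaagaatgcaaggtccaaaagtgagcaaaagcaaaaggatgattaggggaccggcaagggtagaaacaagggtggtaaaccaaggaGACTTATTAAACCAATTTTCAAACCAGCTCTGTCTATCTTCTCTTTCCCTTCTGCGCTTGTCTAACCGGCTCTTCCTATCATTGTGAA
Trim24, chr6:37870561-37870860, plus strand, MACS 1.4 peak: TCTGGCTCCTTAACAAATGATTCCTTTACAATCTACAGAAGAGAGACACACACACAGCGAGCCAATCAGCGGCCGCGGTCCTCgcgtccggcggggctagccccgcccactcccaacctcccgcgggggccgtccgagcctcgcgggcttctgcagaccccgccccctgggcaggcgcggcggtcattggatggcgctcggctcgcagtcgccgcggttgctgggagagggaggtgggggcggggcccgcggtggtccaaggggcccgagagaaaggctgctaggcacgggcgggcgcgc
At Gm15564 the peak had 24 ChIP fragments at its summit, 112 bp downstream of this start, and the input had 39 reads in the same window. It is 1 of the isolated peaks with raised input described below, where it is named by Kpna1, its nearest protein-coding gene. At Trim24 the middle of the peak lay 363 bp upstream of the start. The score of this peak was 62.65, where the lowest of the MACS 1.4 list was 50.17. The GC content of the Trim24 window was 70.3% and that of the Gm15564 window 43.3%, beside a median of 52.7% over all start windows. None of the windows with a peak held the MEIS core element TGACAG or the PBX-MEIS element TGATTGAC on either strand. These letters occurred in 19.2% and 0.770% of all start windows, and their absence from so few windows says nothing of the factor. Sequence under the other peaks was not analysed here.

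MACS2 placed 340 of its 375 adult peaks alone (90.7%, exact 95% interval 87.3 to 93.4) and 35 in 5 clusters. No clustered peak was farther than 6216 bp from its nearest neighbour, and no isolated peak was nearer than 32587 bp to one, so no peak's class turned on the exact limit. The cluster on chromosome 9 holds a gap of 9612 bp between consecutive peaks, so its extent as 1 cluster does rest on the 10000 bp. The fold, which is the authors' own value for the fragments at a summit over the local background with 1 added to each, had a median of 5.78 among isolated peaks (quartiles 5.38 and 7.82, range 3.73 to 152.51). Fold and p-value together gave the number of ChIP fragments covering each summit as a whole number for all 375 peaks. Isolated peaks rested on a median of 6 fragments (quartiles 5 and 9, range 3 to 202). A count of 6 has an exact Poisson 95% interval of 2.20 to 13.1, and 212 of the 340 isolated peaks had at most 6. Most isolated sites were therefore measured at a depth where a neighbouring level could not be told apart.

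The backgrounds also gave the number of input reads at the summits. They fell on whole steps of 0.0705 fragments, which is the weight of 1 input read after the caller scaled the larger library down. The input thus held 14.2 reads for every ChIP read, and a 163 bp window, the fragment length used by the caller, held 0.918 input reads on average over the genome. For 81 isolated peaks the background came from a wider window, 1 kb in 41 and 10 kb in 40, and only an upper limit for the summit window is known. Of the 259 isolated peaks with a known number, 112 had 0 input reads, 49 had 1 and 49 had 2. For 309 of the 340 isolated peaks the input held at most 3 reads.

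**Figure D1:**
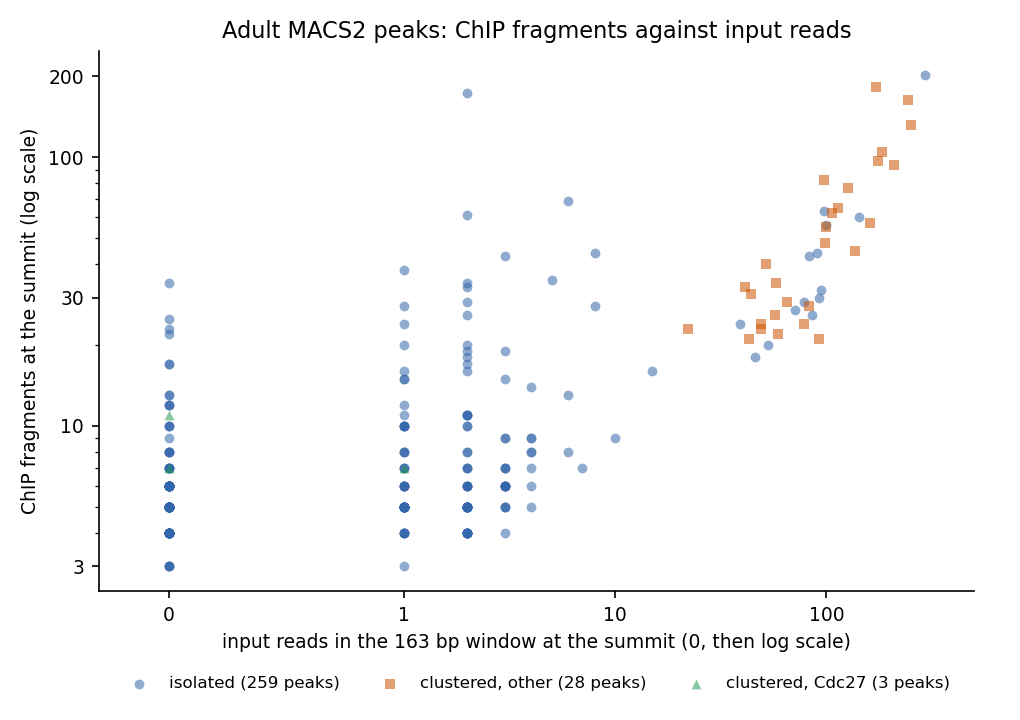
ChIP fragments at the summit (vertical, log scale) against input reads in the 163 bp window at the summit (horizontal, 0 and then log scale) for the adult MACS2 peaks whose input number is known; each point is 1 peak of 1 library pair. Isolated peaks crowd at 0 to 4 input reads, while 14 isolated peaks and the clustered peaks away from Cdc27 sit at 22 or more, and the 3 peaks in Cdc27 sit at 0 or 1.

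Isolated peaks fell into 2 separate ranges of input. In 326 of them the input held at most 15 reads and in the other 14 it held 39 to 294, with no value between; this division was made after the values were seen. The 14 lay nearest to Axin2, Rab10, Kcnh5, Ly6c2, Litaf, Kpna1, Cdk5rap2, Cdk8, Samd9l, Chl1, Dpy19l2, Rpusd4, Lars2 and Pak3. At the site near Rpusd4, a mitochondrial pseudouridine synthase gene, 202 ChIP fragments stood over 294 input reads, the most of any adult peak in both. Inside Chl1, which encodes a neural cell adhesion molecule of the L1 family, 56 fragments stood over 99 reads. The fold had a median of 5.09 in the 14 (range 3.86 to 9.35) and of 5.78 in the 326 (range 3.73 to 152.51). The 14 thus lay within the range of the rest, but none was among the highest folds. An E16 peak by either caller was present at 11 of the 14 (78.6%, 49.2 to 95.3) and at 14 of the 326 (4.29%, 2.37 to 7.10).

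The 20 isolated peaks of highest fold held 20 to 173 fragments over 0 to 8 input reads, and 4 of them had no input read at all. The highest had 173 fragments (148 to 201) over 2 input reads and lay 368 kb from Arid1b, a chromatin remodelling gene (chr17:4626048-4626710). The next had 61 fragments over 2 reads, 927 kb from Bcl11a, a zinc-finger repressor gene, and 69 fragments over 6 reads, 125 kb from Pou4f1, the gene of the sensory neuron factor BRN3A. The peak inside the chloride channel gene Ano2 had 43 fragments over 3 reads. Marcks, the gene of a protein kinase C substrate at the actin cytoskeleton, was 125 kb from a peak with 34 fragments over none. The intervals of fragment number all overlap among the last 11 of the 20, so their order is not resolved. Intervals higher up overlap too, such as those near Bcl11a (46.7 to 78.4) and Pou4f1 (53.7 to 87.3).

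Other genes of that group were nearest to peaks with 20 to 44 fragments. The peak near Sulf1, a heparan sulfate endosulfatase gene, had 44 fragments over 8 reads, and the one near the integrin gene Itga11 had 38 over 1. Cldn34c1, a claudin family gene, and Nxph1, the gene of a neurexin ligand, were nearest to peaks with 34 and 33 fragments, each over 2 reads. The peak inside Plxdc2, a plexin domain gene, had 35 fragments over 5 reads, and that inside the hepatic lipase gene Lipc had 29 over 2. St6galnac3, a sialyltransferase gene, was nearest to a peak with 28 fragments over 1 read. The matrix protein gene Ccn1 lay 41.1 kb from a peak with 26 fragments over 2 reads, and the olfactory receptor gene Olfr854 lay 8.09 kb from a peak with 25 over none.

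Lower in the same group, Malt1, the gene of a paracaspase of lymphocyte signalling, lay 3.44 kb from a peak with 24 fragments over 1 read. Pla2r1, the phospholipase A2 receptor gene, lay 14.7 kb from a peak with 23 fragments and Tbc1d23, an endosomal trafficking gene, 10.4 kb from a peak with 22, both over none. The peaks inside Fam227b and inside the zinc-finger gene Zfp821 had 20 fragments over 1 read and 28 over 8, and the peak 99.6 kb from Gm8882 had 20 over 2. Of the 20 peaks, 5 lay inside a protein-coding gene and 15 lay 3.44 to 937 kb from the nearest one, 6 of them beyond 100 kb. Distance to a gene does not show which gene, if any, a site acts on.

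**Figure D2:**
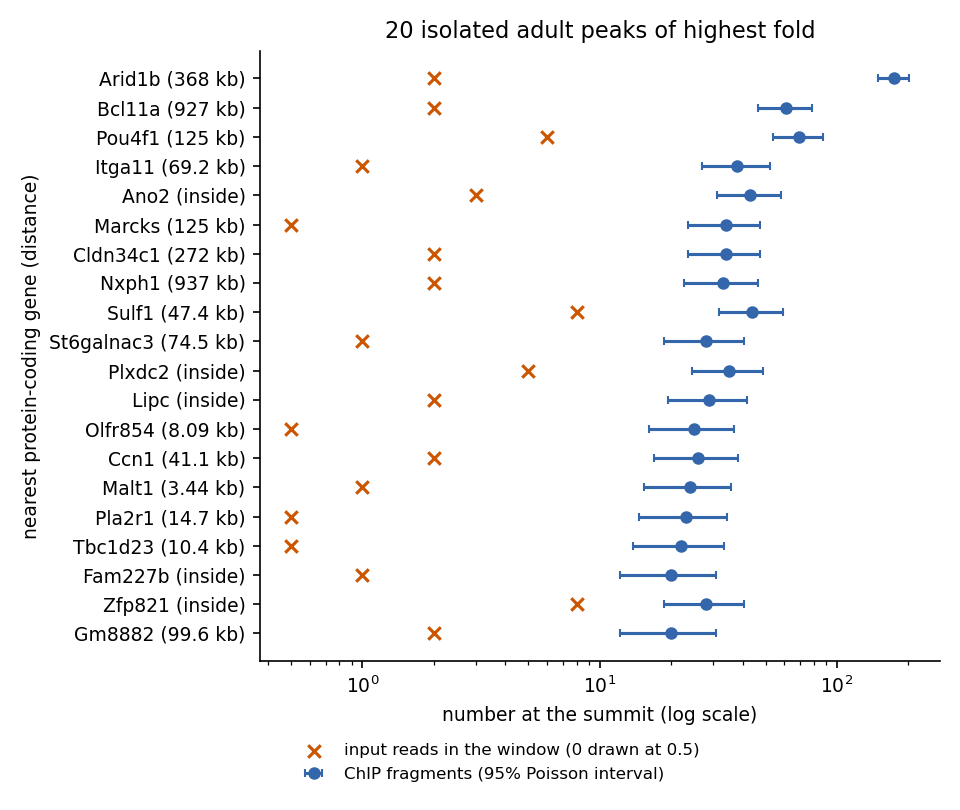
The 20 isolated adult MACS2 peaks of highest fold, named by the nearest protein-coding gene and the distance to it, with ChIP fragments at the summit (points, exact 95% Poisson intervals) and input reads in the 163 bp window (crosses, 0 drawn at 0.5) on a log scale. Fragments run from 20 to 173 while input reads run from 0 to 8.

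A fold of 10 or more was reached by 59 isolated peaks, all of which MACS 1.4 listed too, and at none of them did the input exceed 8 reads. These tall peaks were 270 to 663 bp wide (median 283) and none had the narrowest width of the list. Among the 281 isolated peaks of lower fold, 160 had that narrowest width of 163 bp, the length of 1 fragment. Of the tall peaks, 24 lay inside a protein-coding gene (40.7%, 28.1 to 54.3) and 128 of the lower ones did (45.6%, 39.6 to 51.6), with intervals that overlap. The 35 tall peaks outside genes had a median distance of 74.5 kb to the nearest protein-coding gene, up to 1249 kb.

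Of the 5 clusters, 1 had almost no input reads and the other 4 had many. The cluster inside Cdc27, a subunit gene of the anaphase-promoting complex, spanned 8.07 kb of chromosome 11 (chr11:104526890-104534954) with 7, 11 and 7 fragments over 1, 0 and 0 input reads, and no peak of it overlapped an E16 peak. MACS 1.4 listed the same 3 sites. The other 32 clustered peaks had an input of at least 22 reads where the number is known (28 peaks, median 94.5, up to 251), and all 32 overlapped an E16 MACS2 peak. The largest of these clusters held 22 peaks in 36.5 kb at the start of chromosome 9, 299 kb from Alkbh8, a tRNA methyltransferase gene, with 21 to 105 fragments per summit. On chromosome 2, 4 peaks 1031 kb from Lrrc4c, a netrin-G ligand gene, held 48 to 183 fragments over 98 to 243 reads.

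The remaining clusters were smaller. On chromosome 14, 4 peaks 114 kb from Gm2244 held 24 to 132 fragments. The cluster on chromosome 17 overlapped the ribosomal RNA gene listed as Rn18s-rs5 and the gene listed as AY036118. Its 2 peaks had 42 and 86 fragments over at most 102 and 198 reads, upper limits from the 1 kb window. Clustered peaks were 9.33% of the list but held 34.6% of all fragments counted at summits (1844 of 5329). In the MACS 1.4 list, 26 of 771 peaks were clustered, at Cdc27, near Lrrc4c and Alkbh8, and as a pair 94.7 kb from the heparan sulfate sulfotransferase gene Hs3st3a1. The pair had no E16 MACS2 peak. Sequence present in more copies in the animals than in the mm10 assembly, such as repeats, would gather reads in both libraries at 1 place. The part of copy number in the raised counts of the 32 clustered and 14 isolated peaks, among them that in Chl1, was not tested, and their fragment and input numbers are read with that limit.

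Both callers read the same libraries, so their overlap is no replicate check. An overlap of at least 1 bp with a MACS 1.4 peak was found for 368 of the 375 MACS2 peaks (98.1%, 96.2 to 99.2). The other 7 all had 4 fragments at the summit and lay nearest to Dpp10, Ubap2l, Luzp2, Herc1, Hsf3, Dguok and Rack1. In the reverse direction 355 of 771 MACS 1.4 peaks (46.0%, 42.5 to 49.6) overlapped a MACS2 peak. The MACS 1.4 score is 10 times the −log10 p, again the authors' value. Isolated MACS 1.4 peaks with a MACS2 peak had a median score of 97.5 and a median width of 317 bp, and the 411 without one had 71.7 and 440 bp.

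Among those 411, scores ran from 50.17 to 190.11, and 29 reached 100. The highest was nearest to the zinc-finger gene Zfp804a (190.11), then to the asialoglycoprotein receptor gene Asgr1 (176.39). Uchl3, a ubiquitin hydrolase gene, and Chd1, a chromatin remodeller gene, followed with 151.77 each. Vwc2l and the olfactory receptor gene Olfr1353 had 133.21, Wwox, an oxidoreductase gene, 131.90, the follistatin-like gene Fstl4 127.42 and the histone demethylase gene Kdm4c 126.60.

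**Figure D3:**
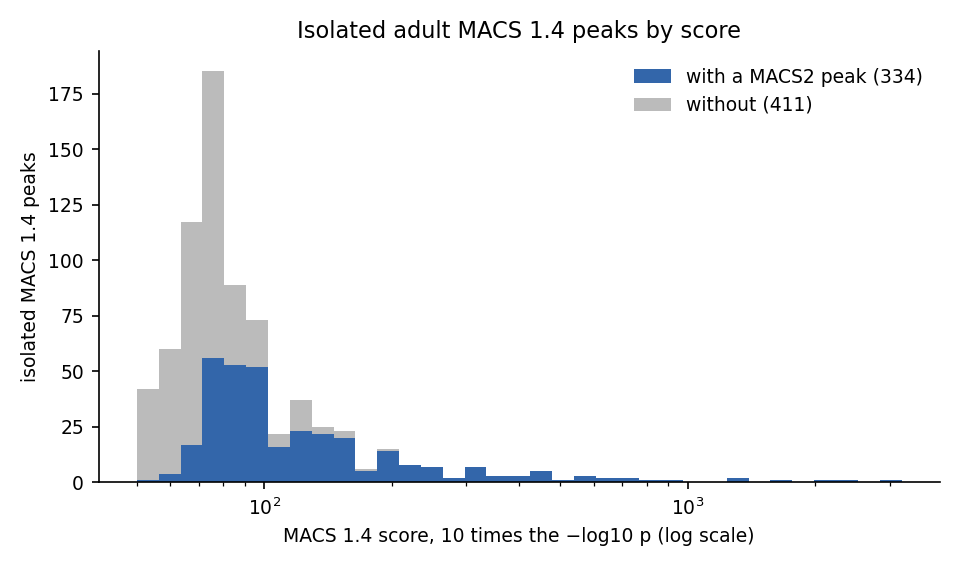
Isolated adult MACS 1.4 peaks by score (10 times the −log10 p, horizontal, log scale), stacked by whether a MACS2 peak overlaps; bars count peaks. The 411 peaks without a MACS2 peak lie between 50.17 and 190.11, and all higher scores belong to peaks with one.

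Of the isolated MACS2 summits, 152 of 340 lay inside a protein-coding gene (44.7%, 39.3 to 50.2), and such genes covered 38.2% of the annotated chromosome span. That span runs from the first to the last gene of each chromosome, and sequence where no peak can be called was not taken out. The Y chromosome alone adds 90.8 Mb to it and held 1 isolated MACS2 peak. No excess inside genes is therefore read from these shares. The share was 45.8% for isolated MACS 1.4 peaks, taken at their middles. The 149 host genes were long, with a median length of 109 kb beside 17.2 kb over all protein-coding genes, and 76 of them (51.0%) reached 100 kb beside 11.1% of all. A longer gene spans more sequence in which a summit is counted. Ctnna2, Rbms3 and Zfpm2 each held 2 isolated summits. In Ctnna2, which encodes the neuronal alpha-catenin, they had 6 and 4 fragments. In Rbms3, an RNA-binding protein gene, they had 5 and 8, and in Zfpm2, which encodes a GATA cofactor, 5 and 6.

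Close to gene starts, summits took a share near or below that of the sequence itself. The 330 isolated peaks on the chromosomes covered by the start table lay a median of 32.7 kb from the nearest one, and 75 (22.7%) lay beyond 100 kb. Within 5 kb lay 31 (9.39%, 6.47 to 13.1), where such sequence made up 9.71% of the span, and within 1 kb lay 4 (1.21%, 0.331 to 3.07) beside 2.13%. The MACS 1.4 shares were 9.89% and 1.67%. Of protein-coding starts, those of Crxos, 673 bp downstream of a summit, and of the developmental transcription factor gene Tfap2d, 660 bp upstream of one, were within 1 kb. These 2 peaks had 6 and 4 fragments.

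**Figure D4:**
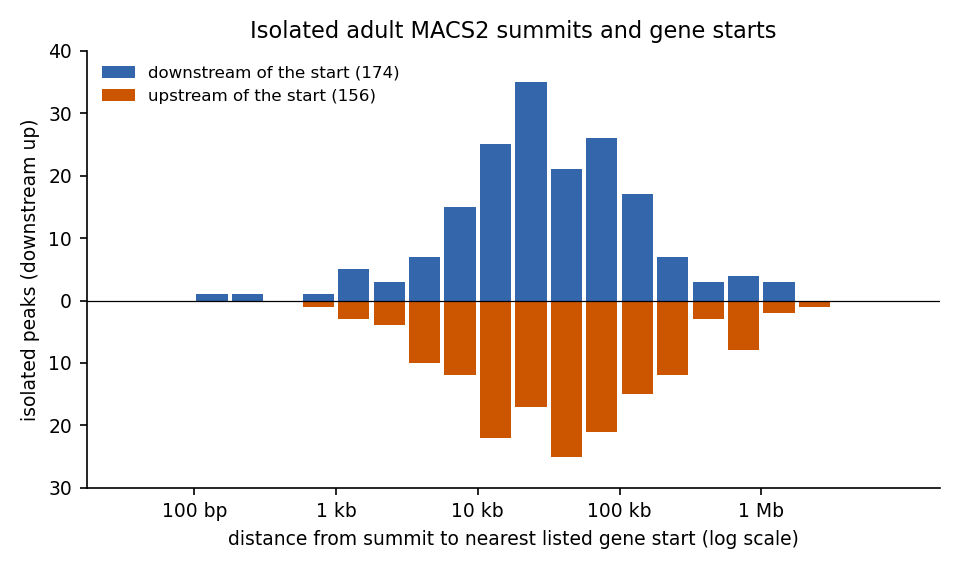
Isolated adult MACS2 summits by distance to the nearest listed gene start (log scale), downstream summits counted upward (174) and upstream summits downward (156). Both sides are broad, with a median distance of 32.7 kb and 4 summits within 1 kb.

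Some summits lay within 1000 bp of an end of a protein-coding gene. For MACS2 these were Fan1, Fth1, Best1 and Lars2, all at the 3′ end, and Rock1, Kif20a and Ndst4, whose strand was not read. The peak at Fan1, which encodes a DNA repair nuclease, had the highest fold of them, 12.0, with 12 fragments (chr7:64345296-64345585). One peak served both Fth1, the ferritin heavy chain gene, and its neighbour Best1, a chloride channel gene, with 7 fragments over 3 reads. The peak in Lars2, the mitochondrial leucyl-tRNA synthetase gene, had 27 fragments over 71 input reads. For MACS 1.4, 5 gene ends of this kind were 5′ ends, those of Asgr1, Gzmk, Scfd2, Trim24 and Crebzf. Another 12 were 3′ ends, among them that of the neuronal tubulin gene Tubb3, and for 7 the strand was not read. The share of sequence near either end was not computed, so for both callers these counts are not read as a preference for a side.

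For gene groups, a protein-coding gene was counted as having a peak if it contained a summit or had one no more than 10000 bp away. By MACS2 this held for 210 of 21883 protein-coding genes (0.96%) and for 82 of the 2428 that reached 100 kb (3.38%). By MACS 1.4 it held for 486 (2.22%) and for 200 of the long ones (8.24%). Over 12 lists with 413 genes, 11 members had a MACS2 peak and 22 a MACS 1.4 peak. Of the 11, 10 were among the 153 list members that reached 100 kb, so the list counts are read against the share of long genes.

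Transcription factors of sensory neurons had a MACS2 peak at 3 of 35 genes, 2 of them long, out of 8 long members. The peak inside Bcl11a had 10 fragments and at most 2 input reads, and lay apart from the taller one 927 kb away. Those inside Ebf3 and Ebf1, genes of the early B-cell factor family, had 5 and 4 fragments. Axon guidance genes had 4 of 52, all among the 40 long members. Cntn5, a contactin gene, had 10 fragments over 2 reads, Dcc, the netrin receptor gene, had 5 over none, and Robo1, the Slit receptor gene, had 4 over none. The fourth was Chl1, with its raised input. MACS 1.4 added Sema3a, a repulsive guidance cue gene (score 71.34).

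Synaptic and adhesion receptor genes had 3 of 56, namely Ctnna2, the lipoprotein receptor gene Lrp1b (9 fragments over 10 reads) and the cadherin gene Cdh12 (5 over none), and MACS 1.4 added the NMDA receptor subunit gene Grin2a (73.23). Nociceptor and itch genes had 1 of 36, Plxnc1, a semaphorin receptor gene, with 8 fragments and at most 1 input read. The other 8 lists had no MACS2 peak. In 5 of them MACS 1.4 listed peaks with low scores. Beside the TALE genes described next, they were at Ngfr, the p75 neurotrophin receptor gene (50.68), the potassium channel gene Kcnk2 (64.8), the calcium channel genes Cacna1e (74.01) and Cacna1d (72.06), and at Hoxb7 (56.88), whose single peak also counted for Hoxb6 and Hoxb8. Markers of glia (24 genes), of other cell types (32) and translation genes (40) had no peak by either caller.

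**Figure D5:**
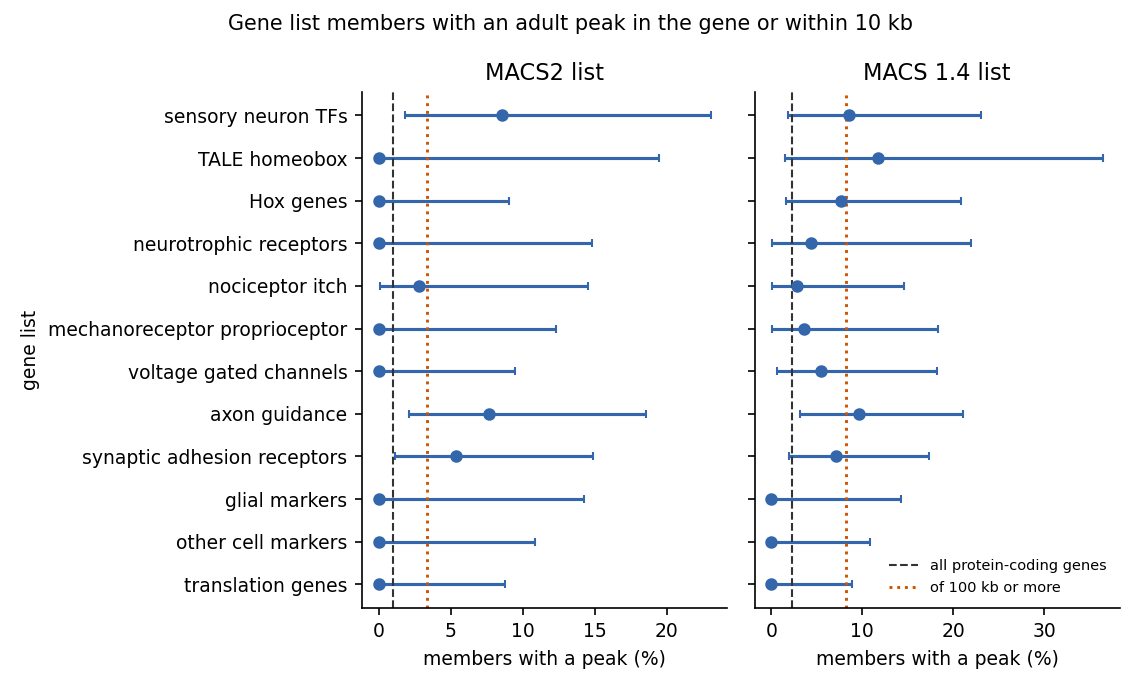
Percent of the members of each gene list with an adult peak in the gene or within 10 kb, by MACS2 (left) and MACS 1.4 (right), with exact 95% intervals; vertical lines give all protein-coding genes (0.96% and 2.22%) and those of 100 kb or more (3.38% and 8.24%). Intervals are wide, and of the 12 lists 8 have no MACS2 peak.

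The Meis genes themselves had no MACS2 peak nearby. The nearest lay 279 kb from Meis3, 3191 kb from Meis2 and 5109 kb from Meis1. MACS 1.4 placed a peak inside Meis2 (chr2:115876131-115876651), 188 kb from its nearest listed start. The score of this peak was 52.61, where the lowest of the MACS 1.4 list was 50.17. Of the other TALE genes, Pknox2, a PREP family gene, had a MACS 1.4 peak (74.39). Together 2 of the 17 TALE genes had one by MACS 1.4, and both reach 100 kb.

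An E16 MACS2 peak overlapped 22 of the 340 isolated adult peaks (6.47%, 4.10 to 9.63), and an E16 MACS 1.4 peak overlapped 25. The shared sites were of unlike kinds. At 7 of the 22 the adult fold was 10 or more, those near Arid1b, Bcl11a, Pou4f1, Sulf1, Nxph1, Plxdc2 and Gm8882, with 20 to 173 adult fragments over at most 8 input reads and 7 to 26 E16 fragments over at most 13. All 7 had more fragments in the adult, although they were picked by their adult fold. At the site near Arid1b the counts were 173 in the adult and 24 at E16, and at the site near Sulf1, where their ratio was smallest, they were 44 and 26. At the 11 sites with raised input, 9 had more fragments at E16, and Axin2 and Cdk8 had fewer. The other 4 shared sites had 7 to 9 adult fragments over at most 10 input reads. Of these, 2 had more fragments in the adult and 2 had more at E16. The genome-wide background was 3.55 times higher at E16, so fragment numbers are not on a common scale, and with 1 library per age the difference has no test. Of the 59 tall isolated adult peaks, 8 had an E16 peak by either caller (13.6%, 6.04 to 25.0) and 51 had none. Among all 340 isolated peaks, the 25 with an E16 MACS 1.4 peak were 7.35% (4.81 to 10.7), so most isolated peaks had none. Of the 20 isolated peaks of highest fold, 8 had an E16 peak by either caller and 12 had none.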

How the data were processed

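ChIP-seq peak lists of adult dorsal root ganglia were analysed, 1 immunoprecipitated library against 1 input library. Per the submitters' processing notes, bcl2fastq 2.17 and FastQC were used on the reads, mm10 was the genome build, and MACS2 2.1.1 and MACS 1.4.2 called the peaks. Aligner, duplicate handling, caller settings and total reads are not given in the sources used here. Kept duplicates or multiply placed reads would raise fragment numbers. The MACS2 list deposited by the authors gives per peak a score, a fold (ratio), −log10 p and −log10 q values and a summit offset. The MACS 1.4 list deposited by the authors gives a score. Peaks were called per age on single libraries.

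The whole number of fragments was solved from fold and −log10 p (tolerance 0.001, largest error 0.00012). Backgrounds were then assigned to the genome, 163 bp, 1 kb or 10 kb window in whole input reads, with no peak unexplained. Of the 85 peaks with a wider window, other fragment lengths of 140 to 190 bp made at most 14 whole. The solution was also run on peaks simulated with the same formulas and windows. That checks its arithmetic only and cannot show that the caller worked with them. Python 3.11.15, NumPy 2.4.6, pandas 2.3.3, SciPy 1.17.1 and matplotlib 3.10.9 were used.

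Genes (49939 on assembled chromosomes, 21883 protein-coding) and start windows came from RefSeq tables of GRCm38.p6; the start table does not cover chromosome 18. The gene table has no strand or exons, so exon and intron were not assigned. The middle of a MACS 1.4 peak stood for its summit. Shares have exact (Clopper-Pearson) and fragment numbers exact Poisson 95% intervals. Members, lists and rules were chosen with earlier results of these data known. Genes were named as the nearest to the 20 isolated peaks of highest fold, to the clusters and to caller-specific peaks, as hosts of 2 summits, as gene ends within 1000 bp, as up to 4 members per list and caller, and as Meis1, Meis2 and Meis3. The genes of the 14 sites with raised input and of the sites shared with E16 were named after their values were seen. One gene that the naming rule selects is not reported here. Alternatives were other cluster distances, stricter lists, other overlap rules, other gene windows and the other caller.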

Additional observations from a re-analysis of the deposited data

How the results depend on the processing

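Of 18 alternatives to the main values, 10 stayed within their limits (1.5 times a count, or the 95% interval of a share or median). Cluster distances of 5000 and 50000 bp gave 341 and 338 isolated peaks, and the MACS 1.4 list gave 745. The median of 6 fragments was 6 with −log10 q of at least 3 and 11 with a fold of at least 7, which by construction keeps the taller peaks. Overlap of isolated MACS2 peaks with MACS 1.4 was 97.9% and fell to 93.2% when summits had to lie within 100 bp. Summits inside a gene were 55.0% with all annotated genes, which cover 46.1% of the span. Protein-coding genes with a peak were 0.685% by gene body alone, 2.09% with 50000 bp and 2.22% by MACS 1.4, which lists more peaks. Start windows with a peak rose from 1 gene to 4 with MACS 1.4. The E16 overlap was 6.18% within 100 bp and 7.35% with the E16 MACS 1.4 list. No gene list moved beyond its interval in 36 alternatives, but the intervals are wide. Depth limits single sites, since a count of 6 fragments cannot be told from 3 or 13. No paired analysis was possible because each group holds 1 library and no test between groups was made.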

Other observations

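MicroRNA hairpins near adult peaks were counted. The share of sequence within 5000 bp of a hairpin was not computed, so the counts are not read as few or many. Of 1005 hairpins in the RefSeq table, MACS2 had a summit within 5000 bp of 2, Mir6537 at 1385 bp (fold 6.84) and Mir350 at 2890 bp (fold 5.61). MACS 1.4 listed both and 4 more, of which Mir7231 lay under a peak with a score of 72.86, 2 bp from its middle. No mature sequence is given because no value bears on the microRNAs themselves.

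Isolated MACS2 peaks were spread over the chromosomes. Among autosomes the number per 100 Mb ran from 8.75 on chromosome 3 to 18.9 on chromosome 9. It was 10.5 on the X chromosome and 1.10 on the Y chromosome, which held 1 peak. The isolated peaks of chromosome 9 are counted without the 22 clustered ones there.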
